A study of Homo sapiens with 6 samples.

Results

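The genes described here were 32 genes of the NRF2 response and of antioxidant defence, chosen by symbol for their known functions. The rule uses no measured value, although the list was drawn up with earlier results of these data known. All 32 were among the 23002 genes of the deposited table. The samples were RNA of U251, a human glioblastoma cell line in long use, which carried either a control short hairpin RNA (sh-NC, labelled NC, 3 samples) or a short hairpin RNA against TRAF2 (sh-TRAF2, labelled KD, 3 samples). TRAF2 is an adaptor and ubiquitin ligase of TNF receptor signalling. The study asked what its loss changes in glioblastoma cells. The study made its stable lines with lentiviral vectors and selected them with puromycin. The vector listed for the TRAF2 hairpins also carries EGFP and puromycin resistance, and that of the control hairpin is not listed. The study made sh-TRAF2#1 and sh-TRAF2#2, and which of them was sequenced is not named in the sources used here. No treatment, culture time or separate line is given for single samples, so the p-values measure the spread between these 6 samples, which may be technical.

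NRF2, the product of NFE2L2, is a transcription factor that KEAP1 holds in the cytoplasm and marks for degradation. Oxidants and electrophiles modify KEAP1 and free NRF2, which then binds antioxidant response elements in the promoters of genes for glutathione synthesis, thioredoxin, quinone reduction, heme breakdown and ferritin. Iron has a further layer of control. Iron regulatory proteins bind stem-loops called iron-responsive elements (IRE) when iron is scarce, which blocks translation of the ferritin transcripts FTH1 and FTL and protects the transferrin receptor transcript TFRC from decay.

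The 3 iron genes carry such stem-loops, and they are shown because these genes had the largest rise and the largest fall of the 32. The part of the stem-loops in these differences was not tested. Annotated transcripts (GENCODE 29, GRCh38) were searched on the transcribed strand for a C, 5 bases, the loop CAGTGN and then 5 bases that pair with the 5 before the loop, G-T pairs allowed. The capitals mark the 6 bases of the loop. The FTH1 element lay in the 5′UTR, in exon 1 of 4 of FTH1-204, at chr11:61967574-61967602 on the minus strand. The FTL element lay in the 5′UTR, in exon 1 of 4 of FTL-201, at chr19:48965335-48965363 on the plus strand. In TFRC the search found 4 elements in the 3′UTR, in exon 18 of 18 of TFRC-203 on the minus strand. An element with another loop or an unpaired base among the 5 would be missed. The 4 found lay at chr3:196050979-196051007, chr3:196050575-196050603, chr3:196050510-196050538 and chr3:196050463-196050491. They are given 5′ to 3′ in that order.
FTH1: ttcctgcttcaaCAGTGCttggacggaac
FTL: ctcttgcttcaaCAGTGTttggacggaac
TFRC element 1: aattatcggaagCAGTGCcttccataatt
TFRC element 2: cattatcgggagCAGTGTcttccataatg
TFRC element 3: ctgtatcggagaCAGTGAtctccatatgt
TFRC element 4: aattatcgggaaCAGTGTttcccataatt
Such a stem-loop was found in 3 of the 32 genes (9.38%) and in 107 (1.01%) of the 10611 tested genes with an annotated coding transcript. It stood in the longest 5′UTR of 15 tested genes (0.141%) and in the longest 3′UTR of 92 (0.867%). FTH1, FTL and TFRC are known carriers of such elements and were listed by symbol. The share of 9.38% was thus set by the choice of genes and is no result about them. A match is a description of the letters and not a shown binding site.

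Expression was deposited as FPKM, fragments per kilobase of transcript scaled to sequencing depth. The reads recovered on genes ran from 33999558 to 36823562 per sample, and the 32 genes had from 291 to 200927 reads each per sample. The knockdown itself served as a check of the labels. TRAF2 was at 15.1, 18.4 and 15.3 FPKM in the sh-NC samples and at 3.26, 3.22 and 3.33 FPKM in the sh-TRAF2 samples, lower by 79.9% in the mean. Of 9 astrocytic and glioma genes, VIM, CD44, SOX2 and SOX9 were expressed, while OLIG2 and S100B were at or near 0. VIM rose (log2 fold change 0.35, adjusted p = 6.87e-05), and CD44, SOX2 and SOX9 did not pass. NES, a filament gene of neural progenitors, rose from 5.35 to 11.7 FPKM (log2 fold change 1.12, adjusted p = 1.91e-05). GFAP, the filament gene of astrocytes, rose from 0.467 to 1.18 FPKM (log2 fold change 1.11, adjusted p = 0.0382), although its groups overlapped. The summed FPKM of the list was 1459 to 1531 in sh-NC and 1810 to 1855 in sh-TRAF2, and the part of these differences in the results below was not tested. Endothelial, epithelial, neuronal and blood cell marker lists each summed to at most 0.850 FPKM. In bulk RNA, fewer cells of a type and less RNA per cell cannot be told apart.

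The sh-TRAF2 samples were set against the sh-NC samples with limma, on log2(FPKM + 0.1), a scale that understates the change of low genes. The test ran over 11870 genes whose mean FPKM was 0.5 or more. Errors of log2 fold changes are standard errors (SE). All 32 genes passed this filter. A gene was called at a Benjamini-Hochberg adjusted p under 0.05. By this rule 15 of the 32 genes fell and 5 rose, and 12 did not pass. Among all genes tested, 44.6% were called, 20.9% lower and 23.7% higher. The 32 genes were mostly well expressed, 30 of them at a mean of 10 FPKM or more. A comparison chosen after the values were seen showed that 56.1% of the 5050 tested genes at that level were called, 23.3% lower and 32.8% higher. Against these shares, 46.9% of the 32 genes were called lower and 15.6% higher. Under quantile normalization, the split was 18 lower to 3 higher, and over all genes tested it was then 2725 lower to 2541 higher. The number of rises was also 3 when sh-TRAF2 replicate 1 was left out. The median log2 fold change was -0.13 over the 32 genes and 0.02 over all genes tested, and 21 of the 32 lay below 0. Samples of the groups did not overlap for 23 of the 32 genes (71.9%). Over all tested genes this share was 55.5%, and it was not taken for well expressed genes alone. Most differences were small. The log2 fold change was under 0.2 in size for 17 genes, while 9 genes were called with a size of at least 0.4. Only TFRC was called past 2-fold, higher, where 0.986% of all tested genes were called past 2-fold higher, 0.733% lower and 1.72% in either direction.

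**Figure D1:**
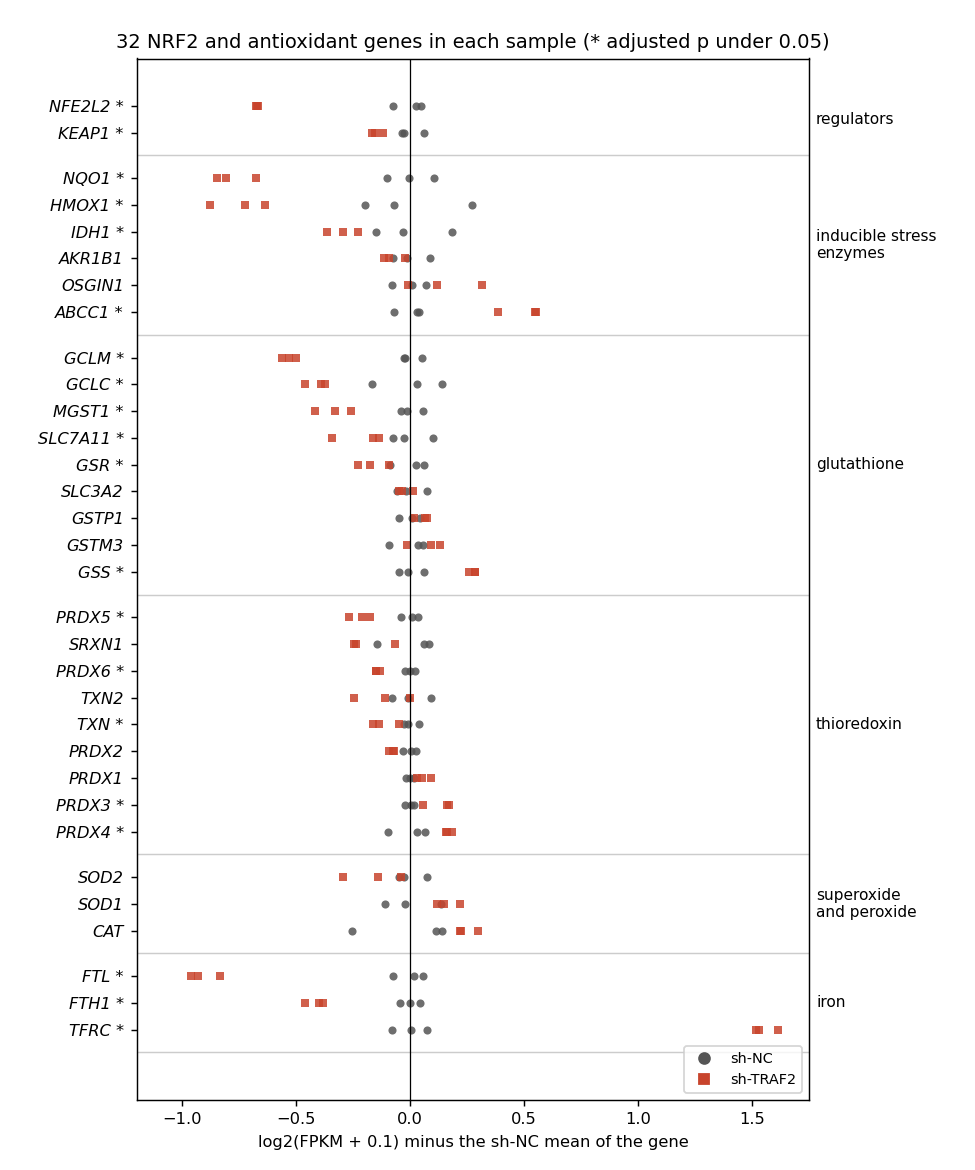
Each of the 32 genes in each sample, as log2(FPKM + 0.1) minus the mean of that gene in sh-NC (x axis, log2 units), with sh-NC as grey circles and sh-TRAF2 as red squares, ordered within the functional groups named on the right. TFRC stands far to the right at a log2 fold change of 1.55, FTL, NQO1, HMOX1 and NFE2L2 stand to the left between -0.91 and -0.67, and the peroxiredoxins (PRDX1 to PRDX6) lie close to the zero line.

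Both regulators fell. The FPKM of NFE2L2 was 73.7, 67.6 and 72.6 in the sh-NC samples and 44.8, 44.6 and 44.7 in the sh-TRAF2 samples. The sh-TRAF2 samples lay almost on 1 value, far below the lowest sh-NC sample. The mean fell from 71.3 ± 3.23 (SD, n = 3) to 44.7 ± 0.141 (SD, n = 3), which was lower by 37.3%, with a log2 fold change of -0.67 (SE 0.041, adjusted p = 1.23e-05). KEAP1, the adaptor through which NRF2 is ubiquitinated, measured 36.4, 39.0 and 36.7 FPKM in sh-NC and 33.6, 34.4 and 33.2 FPKM in sh-TRAF2. All sh-TRAF2 samples were lower, by a small margin. The log2 fold change of KEAP1 was -0.15 (adjusted p = 0.0204), and the call was lost without sh-TRAF2 replicate 1 (adjusted p = 0.0506) or replicate 3 (adjusted p = 0.0702). NFE2L2 shares 1054 of its 5979 annotated exon bases with another gene on the same strand, and counting could not be checked for how such reads were assigned.

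Among the 6 inducible stress enzymes, NQO1, HMOX1 and IDH1 fell, ABCC1 rose, and AKR1B1 and OSGIN1 did not pass. NQO1, a quinone reductase and a classical NRF2 target, was at 238, 223 and 257 FPKM in sh-NC and at 133, 136 and 149 FPKM in sh-TRAF2. The groups were well apart, and the mean was lower by 41.7%, with a log2 fold change of -0.78 (SE 0.060, adjusted p = 4.12e-05). HMOX1 encodes heme oxygenase 1, which breaks heme down to biliverdin, carbon monoxide and iron. Its FPKM was 308.2, 427 and 337 in sh-NC and 214, 228 and 193 in sh-TRAF2. The sh-NC samples were scattered, sh-NC replicate 2 being highest, yet none reached down to the sh-TRAF2 samples. The HMOX1 mean fell from 358 ± 62.2 (SD, n = 3) to 212 ± 17.8 (SD, n = 3), by 40.8%, with a log2 fold change of -0.75 (SE 0.11, adjusted p = 0.00104).

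IDH1, the cytosolic isocitrate dehydrogenase that makes NADPH, fell by 0.30 on the log2 scale (adjusted p = 0.016), from 64.5 ± 7.63 to 52.3 ± 2.42 FPKM (SD, n = 3). That call was lost without a filter on low values (adjusted p = 0.0561) and without sh-TRAF2 replicate 1 (adjusted p = 0.0559). ABCC1, a pump that exports glutathione conjugates, moved the other way. It measured 16.8, 15.7 and 16.9 FPKM in sh-NC and 21.6, 24.1 and 24.2 FPKM in sh-TRAF2, with no overlap. The mean was 1.41-fold higher, with a log2 fold change of 0.50 (SE 0.059, adjusted p = 3.08e-04). OSGIN1, an oxidative stress-induced growth inhibitor, had a log2 fold change of 0.14 (95% interval -0.045 to 0.33, adjusted p = 0.191). AKR1B1, the aldose reductase, had one of -0.08 (95% interval -0.18 to 0.03, adjusted p = 0.209). AKR1B1 was called lower under quantile normalization (log2 fold change -0.14, adjusted p = 0.0206), and was at -0.034 without sh-NC replicate 2. OSGIN1 ran from 0.054 to 0.21 with each sample left out. Samples of the groups overlapped for both genes, and the interval of AKR1B1 leaves no room for a fall of the size seen in NQO1 or HMOX1.

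**Figure D2:**
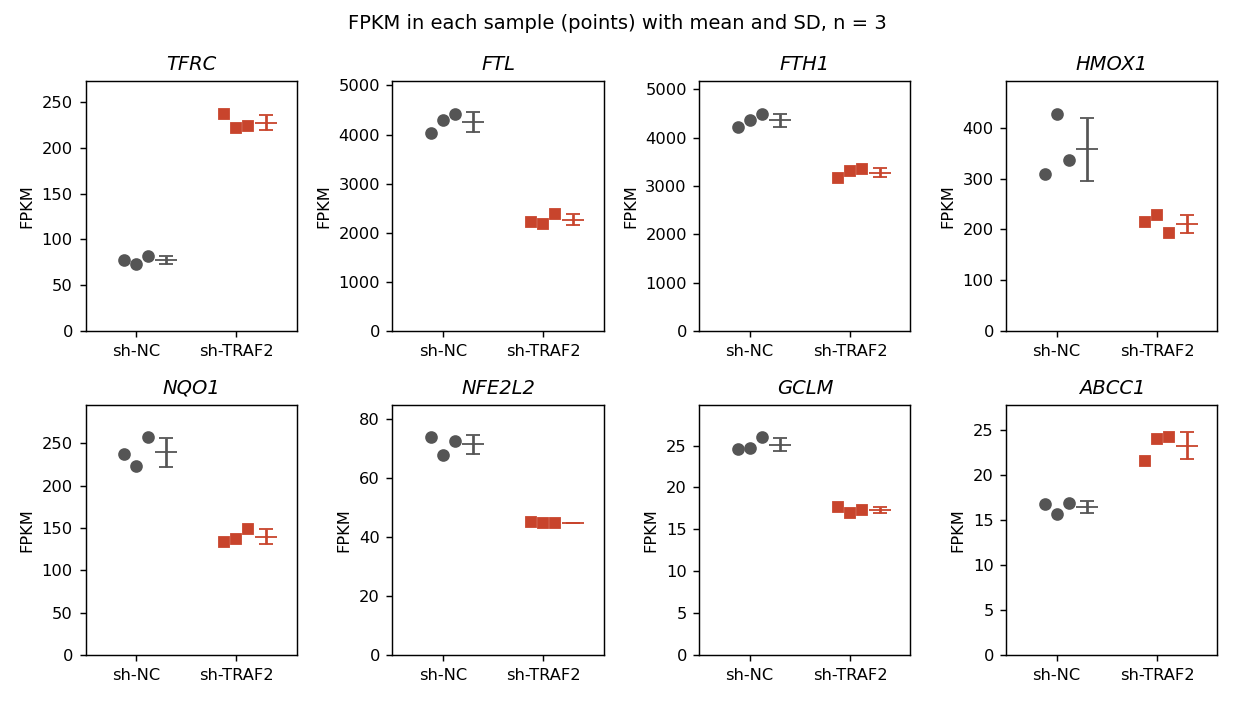
FPKM (y axis, linear, from 0) in each sample for 8 of the 9 genes called with a log2 fold change of at least 0.4 in size, with the mean and SD (n = 3) beside the points and sh-NC in grey, sh-TRAF2 in red. The groups are separate in all 8 panels, with sh-TRAF2 higher for TFRC and ABCC1 and lower for FTL, FTH1, HMOX1, NQO1, NFE2L2 and GCLM.

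Of the 9 glutathione genes, 5 fell, 1 rose and 3 did not pass. Glutamate-cysteine ligase makes the rate-limiting step of glutathione synthesis from a catalytic subunit, GCLC, and a modifier subunit, GCLM. GCLC was at 17.6, 15.4 and 19.1 FPKM in sh-NC and at 12.6, 13.2 and 13.3 FPKM in sh-TRAF2. GCLM was at 24.6, 24.7 and 26.0 FPKM in sh-NC and at 17.7, 16.97 and 17.3 FPKM in sh-TRAF2. Both subunits were lower in every sh-TRAF2 sample than in any sh-NC sample. GCLC fell by 0.41 on the log2 scale (SE 0.076, adjusted p = 0.00305), and its mean was lower by 25.04%. GCLM fell by 0.53 (SE 0.043, adjusted p = 4.70e-05), and its mean was lower by 31.0%. Glutathione synthetase, GSS, which carries out the next step, rose instead. Its FPKM was 28.8, 27.5 and 26.7 in sh-NC and 33.1, 33.7 and 33.7 in sh-TRAF2, a 1.21-fold higher mean (log2 fold change 0.28, SE 0.041, adjusted p = 0.00104). The first enzyme of the pathway and the second thus differed in opposite directions in these samples.

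The other glutathione genes serve cystine supply and the use of glutathione. SLC7A11, the light chain of the cystine-glutamate exchanger, measured 75.7, 73.1 and 82.7 FPKM in sh-NC and 70.1, 60.6 and 68.9 FPKM in sh-TRAF2. Its groups did not overlap, although sh-NC replicate 2 and sh-TRAF2 replicate 1 were close, and its log2 fold change was -0.21 (adjusted p = 0.0286). SLC3A2, the heavy chain that this exchanger shares with other amino acid transporters, was at 681, 745 and 699 FPKM in sh-NC and at 690.4, 714 and 685 FPKM in sh-TRAF2. The SLC3A2 groups overlapped fully, with a log2 fold change of -0.02 (95% interval -0.11 to 0.06, adjusted p = 0.636). Glutathione reductase, GSR, which returns oxidised glutathione to its reduced form, fell by 0.17 (adjusted p = 0.0346), from 32.2 ± 1.73 to 28.7 ± 1.34 FPKM (SD, n = 3). The microsomal glutathione transferase MGST1 fell by 0.34 (SE 0.048, adjusted p = 8.09e-04), from 86.9 ± 3.02 to 68.9 ± 3.79 FPKM (SD, n = 3). The soluble transferases, which attach glutathione to electrophiles, did not pass, with log2 fold changes of 0.05 for GSTP1 (adjusted p = 0.251) and 0.07 for GSTM3 (adjusted p = 0.398). The call for GSR was lost in 6 of 15 alternative fits, among them those without sh-NC replicate 3 (adjusted p = 0.107) and sh-TRAF2 replicates 1 (0.0828) or 2 (0.111). That for SLC7A11 was lost in 5, among them those without sh-NC replicates 1 (adjusted p = 0.0551) or 3 (0.0858) and sh-TRAF2 replicate 2 (0.0807). SLC3A2 was called lower under quantile normalization (adjusted p = 0.0307).

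The thioredoxin genes differed little, with a median log2 fold change of -0.12. Of 9 genes, TXN, PRDX5 and PRDX6 fell, PRDX3 and PRDX4 rose, and TXN2, SRXN1, PRDX1 and PRDX2 did not pass. TXN, the cytosolic thioredoxin that reduces oxidised protein thiols, was at 293, 289.6 and 303 FPKM in sh-NC and at 285, 268 and 263 FPKM in sh-TRAF2. TXN2, its mitochondrial counterpart, was at 27.4, 29.5 and 26.1 FPKM in sh-NC and at 23.3, 25.6 and 27.6 FPKM in sh-TRAF2. The TXN groups were separate by a narrow gap and the TXN2 groups overlapped, yet both had a log2 fold change of -0.12 (adjusted p = 0.035 for TXN and 0.194 for TXN2). The TXN call was lost in 6 of 15 alternative fits, among them those without sh-NC replicates 1 (adjusted p = 0.0729) or 3 (0.102) and sh-TRAF2 replicates 2 (0.107) or 3 (0.121). Peroxiredoxins reduce hydrogen peroxide with electrons from thioredoxin or, for PRDX6, from glutathione. PRDX5, found in mitochondria, peroxisomes and cytosol, fell by 0.22 (SE 0.036, adjusted p = 0.00167) and PRDX6 fell by 0.14 (SE 0.029, adjusted p = 0.00434).

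PRDX3, the mitochondrial peroxiredoxin, and PRDX4, that of the endoplasmic reticulum, had log2 fold changes of 0.13 (adjusted p = 0.0273) and 0.17 (adjusted p = 0.0184). The call for PRDX3 was lost in 7 of 15 alternative fits, among them those without sh-NC replicates 1 (adjusted p = 0.0673) or 2 (0.0624) and sh-TRAF2 replicates 1 (0.0833) or 3 (0.0944). The call for PRDX4 was lost in 4, among them those without sh-NC replicate 1 (adjusted p = 0.0511) or sh-TRAF2 replicate 1 (0.0528). The cytosolic PRDX1, the most abundant transcript of the family, and PRDX2 had log2 fold changes of 0.06 (adjusted p = 0.134) and -0.08 (adjusted p = 0.0605), and neither passed although their groups did not overlap. PRDX2 was called lower after TPM rescaling (adjusted p = 0.0326) and under quantile normalization (adjusted p = 0.00331). Mean levels in sh-NC ran from 68.7 FPKM for PRDX4 to 358 FPKM for PRDX1. The summed FPKM of the 6 peroxiredoxins was 1069.6 ± 7.004 in sh-NC and 1051 ± 10.98 in sh-TRAF2 (SD, n = 3), a ratio of 0.982. SRXN1, which repairs overoxidised peroxiredoxins, had a log2 fold change of -0.18 (adjusted p = 0.0767). It was called lower without sh-NC replicate 2 (adjusted p = 0.0161) or sh-TRAF2 replicate 3 (adjusted p = 0.0396). Of its 2698 annotated exon bases, 2292 lie in another gene on the same strand.

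None of the 3 genes for superoxide and peroxide removal passed. SOD1, the copper-zinc superoxide dismutase of the cytosol, was at 81.2, 68.5 and 72.8 FPKM in sh-NC and at 82.0, 80.4 and 86.2 FPKM in sh-TRAF2. SOD2, the manganese enzyme of mitochondria and a known NF-kappaB target, was at 133, 122 and 124 FPKM in sh-NC and at 123, 103 and 115 FPKM in sh-TRAF2. The groups overlapped for both dismutases, whose log2 fold changes were of similar size and opposite sign, 0.16 for SOD1 (95% interval 0.02 to 0.30, adjusted p = 0.0608) and -0.16 for SOD2 (95% interval -0.30 to -0.01, adjusted p = 0.073). SOD2 was called lower with limma-voom on the recovered reads (adjusted p = 0.0259), under quantile normalization (0.0195) and without sh-TRAF2 replicate 1 (0.0240). SOD1 was called higher without sh-NC replicate 1 (adjusted p = 0.0103). Catalase, CAT, which breaks down hydrogen peroxide in peroxisomes, was the lowest of the 32 genes, at 4.29 ± 0.645 FPKM in sh-NC and 5.07 ± 0.160 FPKM in sh-TRAF2 (SD, n = 3). Every sh-TRAF2 sample of CAT lay above every sh-NC sample, and its log2 fold change was 0.25 (adjusted p = 0.0909), or 0.12 without sh-NC replicate 2.

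The iron genes held the largest rise of the 32, TFRC, and the largest fall, FTL, while FTH1 fell by less than NQO1 or HMOX1. TFRC, the receptor that takes up transferrin-bound iron, was at 77.5, 73.2 and 81.4 FPKM in sh-NC and at 237, 222 and 223 FPKM in sh-TRAF2. All sh-TRAF2 samples lay far above the highest sh-NC sample. The mean rose 2.94-fold, from 77.4 ± 4.10 to 227 ± 8.43 FPKM (SD, n = 3), with a log2 fold change of 1.55 (95% interval 1.45 to 1.66, SE 0.046, adjusted p = 7.95e-07). This was the 18th highest log2 fold change of the 11870 genes. Across the 15 alternative fits it ran from 1.51 to 1.59.

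Ferritin stores iron in a shell of heavy (FTH1) and light (FTL) chains, and the heavy chain oxidises it. FTL was at 4040.1, 4301 and 4425 FPKM in sh-NC and at 2228, 2181 and 2388 FPKM in sh-TRAF2. FTH1 was at 4222, 4362 and 4494 FPKM in sh-NC and at 3168, 3301 and 3347 FPKM in sh-TRAF2. Both chains were lower in all sh-TRAF2 samples, FTL by more. The FTL mean was lower by 46.8%, with a log2 fold change of -0.91 (SE 0.044, adjusted p = 4.41e-06), and the FTH1 mean was lower by 24.9%, with one of -0.41 (SE 0.032, adjusted p = 4.12e-05). FTH1 and FTL held ranks 1 and 2 by FPKM in every sh-NC sample, and FTL held rank 9 in every sh-TRAF2 sample. Their sum made up 2.36, 2.47 and 2.55% of all FPKM in the sh-NC samples and 1.53, 1.55 and 1.63% in the sh-TRAF2 samples (exact permutation test, p = 0.1, the smallest that 3 against 3 allows). Under quantile normalization, which gives genes of the same rank the same value, the FTH1 log2 fold change was -0.06 (adjusted p = 0.0882) and that of FTL was -0.72, still called.

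The annotated exons of FTH1 share 1267 of 2030 bases with BEST1 on the other strand, and the use of strand in counting is not given in the sources used here. BEST1 was at 41.2, 24.4 and 22.9 FPKM in sh-NC and at 28.3, 36.6 and 35.4 FPKM in sh-TRAF2, far under FTH1 in every sample. Both ferritin genes have processed pseudogenes that can share their reads, and how the counting treated such reads is not given. In all, 12 of the 32 genes share exon bases with another annotated gene, NQO1 with an antisense RNA over 575 of 3254 bases and PRDX1 with MMACHC on the other strand over 379 of 1522.

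**Figure D3:**
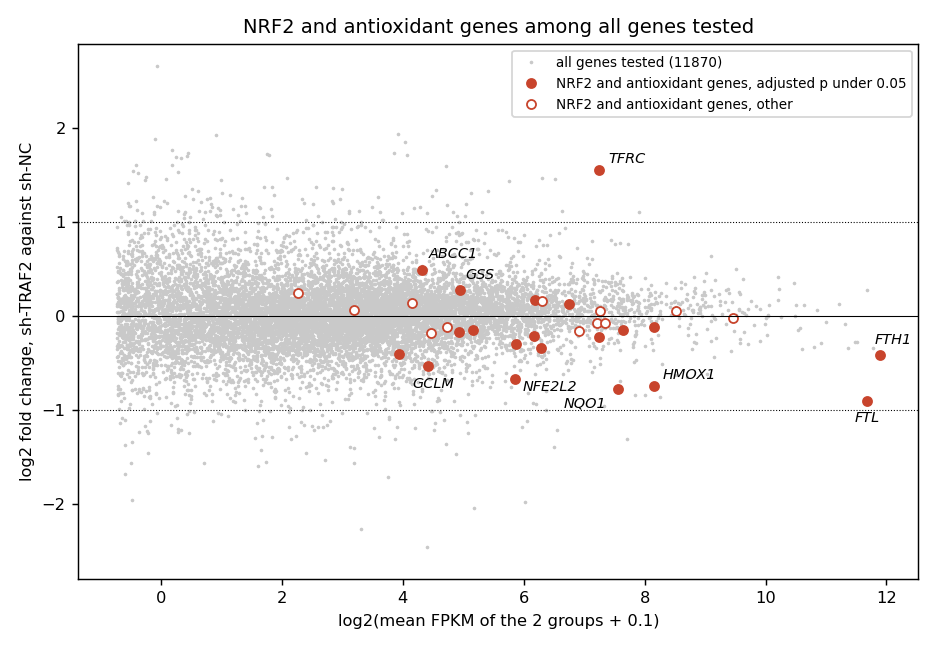
Log2 fold change of sh-TRAF2 against sh-NC (y axis) by log2(mean FPKM of both groups + 0.1) (x axis) for the 11870 genes tested (grey) and the 32 NRF2 and antioxidant genes (red, filled where the adjusted p was under 0.05), with dotted lines at a log2 fold change of 1 and -1. TFRC is the one red point above the upper line, at 1.55, and FTL at -0.91 and FTH1 at -0.41 lie at the far right among the most abundant transcripts.

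Ratios of 2 genes within a sample were compared for 6 pairs of partners, each over all 20 ways to assign the 6 samples to groups. The exact permutation test cannot give a p under 0.1 here, so none could pass. FPKM is per length, so the ratios compare levels of the genes. The FTH1 to FTL ratio was near 1 in sh-NC, with a log2 ratio of 0.04 ± 0.024, and was 0.53 ± 0.059 in sh-TRAF2 (SD, n = 3; exact p = 0.1, adjusted over 6 pairs 0.2). The transcripts were thus at a ratio of 1.02 in sh-NC and 1.44 in sh-TRAF2. The NFE2L2 to KEAP1 log2 ratio was 0.93 ± 0.12 in sh-NC and 0.40 ± 0.029 in sh-TRAF2 (SD, n = 3; exact p = 0.1, adjusted 0.2), a linear ratio of 1.91 against 1.32. The SOD2 to SOD1 log2 ratio was 0.77 ± 0.061 in sh-NC and 0.45 ± 0.12 in sh-TRAF2 (SD, n = 3; exact p = 0.1, adjusted 0.2), although neither dismutase was called alone. Samples of the groups did not overlap in these 3 ratios. The share without overlap was not taken for other pairs of genes, and for single genes it was 55.5% of all tested. Samples of the groups overlapped in the other 3 ratios. The log2 ratio differed by 0.12 for GCLC to GCLM (exact p = 0.3, adjusted 0.36), by -0.19 for SLC7A11 to SLC3A2 (exact p = 0.3, adjusted 0.36) and by -0.0039 for TXN2 to TXN (exact p = 1, adjusted 1). With each sample left out, the GCLC to GCLM difference ran from 0.052, without sh-NC replicate 2, to 0.17, and the SLC7A11 to SLC3A2 difference from -0.26, without sh-NC replicate 2, to -0.11, without sh-TRAF2 replicate 2.

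**Figure D4:**
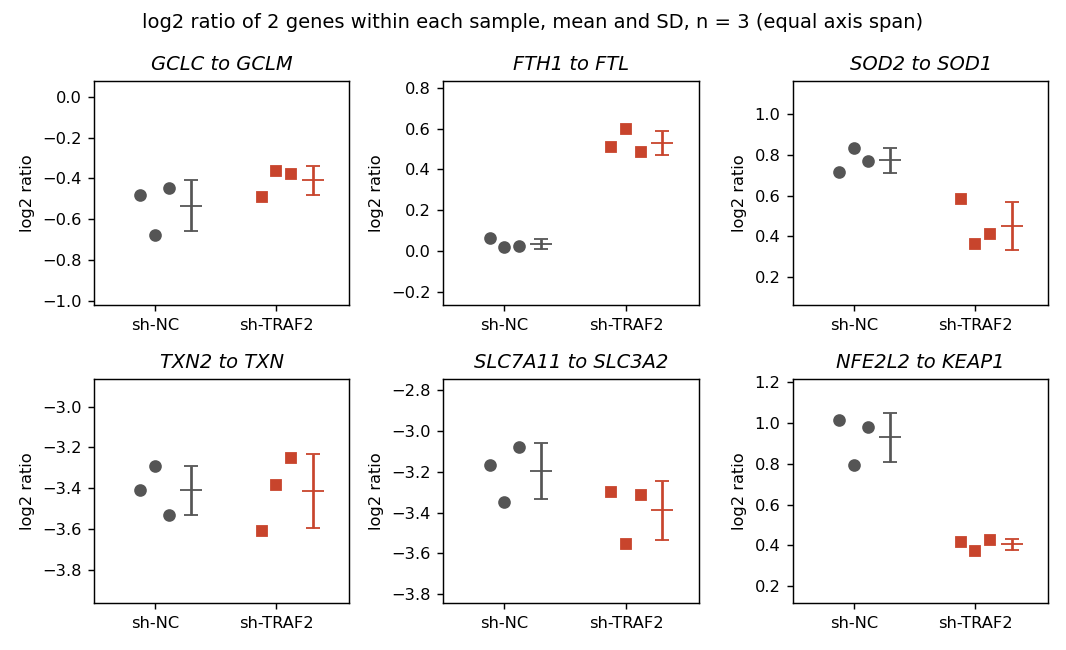
Log2 ratio of the FPKM of 2 partner genes within each sample (y axis, the same span in every panel) for sh-NC (grey) and sh-TRAF2 (red), with mean and SD (n = 3). The groups are apart for FTH1 to FTL, where the ratio is higher in sh-TRAF2, and for SOD2 to SOD1 and NFE2L2 to KEAP1, where it is lower, and overlap in the other panels.

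Promoters from RefSeq (GRCh38.p14, from 250 bases before to 50 after the start) were matched by symbol for 22 of the 32 genes, and were searched on both strands for TGACNNNGC, the core of the antioxidant response element. It was present for 6 of these 22 genes (27.3%) and for 1871 of 9608 tested genes with a promoter (19.5%). By single promoters, 6 of 34 held it (17.6%), against 4687 of 35116 in all (13.3%). The matches are shown for genes on both sides of the call, with the match in capitals and the distance of the match from the start in bases. GCLM, MGST1, IDH1 and KEAP1 fell, while SLC3A2 and GSTP1 did not pass.
GCLM, chr1:93909450-93909470, distance -34: atttctGCTTAGTCAttgtct
MGST1, chr12:16347139-16347159, distance 31: acatcgTGACAAAGCaaattg
IDH1, chr2:208255200-208255220, distance -143: tctcgcTGACTCCGCccatcc
KEAP1, chr19:10502811-10502831, distance -54: ttattgTGACACGGCgggcgc
KEAP1, chr19:10502788-10502808, distance -31: ggctctGCTTAGTCAtggtga
SLC3A2, chr11:62881656-62881676, distance -37: ggtgggTGACTCAGCgtcctc
GSTP1, chr11:67583740-67583760, distance -66: gcgccgTGACTCAGCactggg
All are written on the strand of their gene, so GCLM and the second KEAP1 match read as the reverse complement of the motif. Response elements further from the start lie outside this window.

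A stretch of the sh-TRAF2#1 target was searched for in the transcripts of the 32 genes as well, although which hairpin was sequenced is not named. The sh-TRAF2#1 target is a stretch of TRAF2 with ATTCCAC, shown in capitals, a heptamer that had been picked out in these same data by a scan of 3′UTRs. The sh-TRAF2#2 target does not hold this heptamer.
sh-TRAF2#1 target: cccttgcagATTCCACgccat
ATTCCAC stood in the longest annotated 3′UTR of 2 of the 32 genes (6.25%), NQO1 and SOD2, and of 1134 of the 10611 tested genes (10.7%). Among the 15 genes that fell, NQO1 alone held it. The heptamer lies at bases 10 to 16 of the 21 bases of the target. Whether that stretch of the hairpin pairs with other transcripts was not tested, nor was its part in the fall of NQO1. Other stretches of either target were not searched, so the shares above cover this heptamer alone.

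Other genes of the same pathways were read from a list of 89, which covered NRF2 regulators and targets, glutathione and thioredoxin enzymes, NADPH supply and iron handling. GSTA1, GSTM1, TRIM16L and SLC40A1 were not found by symbol among the genes of the deposited table. A further 13 genes lay under the filter, and 72 genes passed it. Of these 29 fell (40.3%), 15 rose (20.8%) and 28 did not pass, so that 61.1% were called, with a median log2 fold change of -0.14. The shares over all genes were 44.6% called, 20.9% lower and 23.7% higher. By a rule set on adjusted p and a log2 fold change of at least 0.5 in size, 10 genes were named. PGD, which makes NADPH in the pentose phosphate pathway, fell from 103 ± 1.65 to 26.1 ± 0.194 FPKM (SD, n = 3; log2 fold change -1.98, adjusted p = 3.09e-08). TKT, the transketolase of the same pathway, fell by 0.84 (adjusted p = 9.48e-06). STEAP3, which reduces iron delivered through the transferrin receptor, fell by 1.31 (adjusted p = 3.25e-05), and MSRB2, a mitochondrial methionine sulfoxide reductase, fell by 1.18 (adjusted p = 1.73e-05). The conjugate pumps ABCC3 and ABCC2 fell by 0.92 and 0.66 (adjusted p = 5.57e-05 and 8.04e-04), opposite to ABCC1. SESN2, CTH and CHAC1, which serve the stress response, cysteine synthesis and glutathione breakdown, fell by 0.62, 0.61 and 0.58. GSTM2 rose by 0.79 (adjusted p = 0.0073) at a low level, 0.442 to 0.832 FPKM. The rise of GSTM2 was smaller, at 0.35 (adjusted p = 0.00678), when 1 rather than 0.1 was added to the FPKM, and the gene was not tested where a mean of 1 FPKM was required.

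A few further genes of that list were picked after their values were seen, because they act beside genes described above. HMOX2, the constitutive heme oxygenase, rose from 14.9 to 21.1 FPKM (log2 fold change 0.50, adjusted p = 9.88e-05) where HMOX1 fell. BACH1, a repressor of HMOX1 and other NRF2 targets, rose from 6.75 to 8.60 FPKM (log2 fold change 0.34, adjusted p = 0.00232). The part of BACH1 in the levels of its targets was not tested. TXNRD1, which reduces thioredoxin in the cytosol, fell by 0.29 (adjusted p = 2.46e-04), while its mitochondrial counterpart TXNRD2 rose from 4.33 to 5.60 FPKM (log2 fold change 0.37, adjusted p = 0.0131). SQSTM1, a NRF2 target that binds KEAP1, fell by 0.33 (adjusted p = 9.40e-05). All of these picked genes were called, while 28 of the 72 tested genes of the list were not. Among the latter were the genes of the iron regulatory proteins, ACO1 (log2 fold change -0.17, adjusted p = 0.0667) and IREB2 (-0.16, adjusted p = 0.0958), although their groups did not overlap. NCOA4, also listed for iron handling, had a log2 fold change of 0.02 (adjusted p = 0.670).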

How the data were processed

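RNA of 6 samples (sh-NC and sh-TRAF2, 3 each, grouped by their labels) was extracted with TRIzol and made into libraries with a VAHTS Universal V6 kit. Per the labels, the submitters' processing notes name HISAT2, HTSeq, R 3.2.0 and DESeq2. The authors deposited 1 table of FPKM values. The genome build, annotation and strand setting are not given in the sources used here. FPKM columns sum to 349408 to 353563, so they are not rescaled to a common total.

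From these, log2(FPKM + 0.1) was compared with limma 3.58.1 in R 4.3.3 (eBayes with a trend, two-sided, Benjamini-Hochberg adjustment over the 11870 genes whose mean FPKM was 0.5 or more). The fit and the recovery of reads were tested on simulated data. Reads were recovered as the smallest whole numbers behind each gene's FPKM values, so that a factor common to all 6 samples cannot be seen. Replicates differed by more than counting noise (chi-square per gene 5.25 to 13.1). Same-numbered samples did not deviate together (correlations -0.0812 to 0.0728), so no pairing was used.

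The genes, lists and tests were chosen with earlier results of these data known. Values per sample are given for called genes with a log2 fold change of at least 0.4 in size, NFE2L2, KEAP1, GSS and the genes of the 6 ratios. Of the other pathway genes, called ones with at least 0.5 were named. GSS, HMOX2, BACH1, TXNRD1, TXNRD2, SQSTM1, ACO1, IREB2 and NCOA4 were chosen after their values were seen. Alternatives were pseudocounts of 1 and 0.01, no filter, a minimum mean of 1 FPKM, TPM rescaling, quantile normalization, a replicate block, eBayes without a trend, limma-voom on recovered reads, and each sample left out. Annotation came from GENCODE 29. The software was scipy 1.17.1 for exact tests, matplotlib 3.10.9 for plots, and pandas 2.3.3 and numpy 2.4.6 under Python 3.11.15.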

Additional observations from a re-analysis of the deposited data

How the results depend on the processing

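The fall of NFE2L2, HMOX1, NQO1, GCLC, GCLM, MGST1, PRDX5, PRDX6 and FTL and the rise of TFRC, ABCC1 and GSS kept their direction and call in all 15 alternatives. Of 480 comparisons of a gene with an alternative, 431 kept direction and call, 33 lost the call, 13 gained it and 3 turned direction. The turned values were small, 0.013 for SLC3A2 without sh-NC replicate 2 (from -0.052 to 0.013 with each sample left out), and -0.0072 for GSTP1 and -0.014 for PRDX1 under quantile normalization. Genes that rose numbered 3 under quantile normalization and 3 with eBayes without a trend, and 3 to 5 with each sample left out. Genes that fell numbered 11 to 18 over all alternatives. Other pathway genes that rose numbered 8 under quantile normalization and 10 to 16 with each sample left out. The TXN2 to TXN difference ran from -0.086 to 0.094 with each sample left out. The cause was not tested. With the replicate number as a block, 6 genes rose and 17 fell, and SRXN1 (adjusted p = 0.0283), SOD1 (adjusted p = 0.0427) and SOD2 (adjusted p = 0.0156, limma) became called. Same-numbered samples share only a number, and 4 of 6 samples correlated best with their own number. Depth limits little here, since each of the 32 genes had at least 291 reads per sample.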
